A study of Arabidopsis thaliana with 4 samples.

Results

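Peaks of LEAFY COTYLEDON1 (LEC1) that lie far from protein-coding genes made up 1057 of the 6356 LEC1-GFP peaks in bent cotyledon-stage Arabidopsis seeds (16.6%, 15.7 to 17.6%). A peak was counted as far when its midpoint lay outside every protein-coding gene and more than 1000 bp from the end of any of them. Of the remaining peaks, 3137 had their midpoint outside genes but within 1000 bp of one, and 2162 had it inside a gene. The genes beside the 15 far peaks with the highest scores included DWF4, HB6, TPS11, PP2CA, NCED3, PSY and HAI1. Far peaks were also found over long noncoding RNA genes, near 10 microRNA genes and rarely over pseudogenes.

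The samples were LEC1-GFP ChIP libraries (2 biological replicates) and input libraries of total fragmented chromatin from the same seeds (2 biological replicates). All plants were homozygous for the lec1-1 mutation and for the transgene LEC1:LEC1-GFP:LEC1, in which LEC1 fused to green fluorescent protein is flanked by LEC1 sequence, so the immunoprecipitated protein comes from a transgene in a mutant background. Whole seeds were used, so binding in the embryo, endosperm and seed coat cannot be told apart. The deposited data are 1 peak list for the whole series, with no value per library, so no value below has a replicate error, and the depth of the libraries is unknown. Intervals are 95% exact intervals, binomial for shares and Poisson for densities, and cover counting error only.

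LEC1 is an NF-YB subunit. NF-Y complexes join NF-YA, NF-YB and NF-YC subunits and bind DNA at CCAAT elements, and LEC1 directs embryo maturation together with the B3-domain regulators ABI3, FUS3 and LEC2 and with bZIP factors. Genes in Arabidopsis are closely packed and most known plant promoter elements lie near the gene they serve, although some distant elements are known. Sequence between coding genes also holds genes for long noncoding RNAs (lncRNAs), which are transcribed but not translated, genes for microRNAs, which direct the silencing of target messengers, and pseudogenes, which are degraded gene or transposon copies.

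Sequence this far from protein-coding genes covers 30.4 Mb, or 25.5% of the 5 nuclear chromosomes, and held 34.8 peaks per Mb. The sequence outside genes within 1000 bp of them held 129 peaks per Mb and the inside of genes 33.5 peaks per Mb. Gene content changed this picture. The 60 of 240 windows of 500 kb with the fewest protein-coding genes, which include the regions around the centromeres, held 19.2 Mb of far sequence but 152 far peaks, or 7.92 per Mb. The remaining windows held 11.2 Mb of far sequence with 905 far peaks, or 81.0 per Mb, against 145 per Mb within 1000 bp outside genes and 34.8 per Mb inside genes. There the far peaks made up 15.4% of peaks (14.5 to 16.4%) on 12.4% of the sequence, while in gene-poor windows they made up 31.6% of peaks (27.5 to 36.0%) on 65.5% of the sequence. Densities are per Mb of all sequence, and how much of it reads could be mapped to was not measured.

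Outside the gene-poor windows, peak density did not stop at 1000 bp from a gene. It was 207 peaks per Mb (198 to 218) in the first 250 bp outside a gene and 103 (92.1 to 116) from 751 to 1000 bp. Among far peaks it was 86.4 per Mb (77.5 to 96.2) from 1001 to 1500 bp, 89.5 (78.0 to 102) from 1501 to 2000 bp and 83.4 (72.6 to 95.4) from 2001 to 3000 bp, and these intervals overlap. Density was 67.1 per Mb (55.2 to 80.8) from 3001 to 5000 bp and 45.0 (29.4 to 66.0) from 5001 to 10000 bp, an interval that includes the 34.8 per Mb inside genes. Only 0.0579 Mb lay over 10000 bp from a gene there, and it held no peak. In gene-poor windows the density was 25.2 per Mb (17.6 to 35.0) from 1001 to 1500 bp and 1.73 per Mb (0.970 to 2.86) beyond 10000 bp, where 15 peaks lay in 8.65 Mb.

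**Figure D1:**
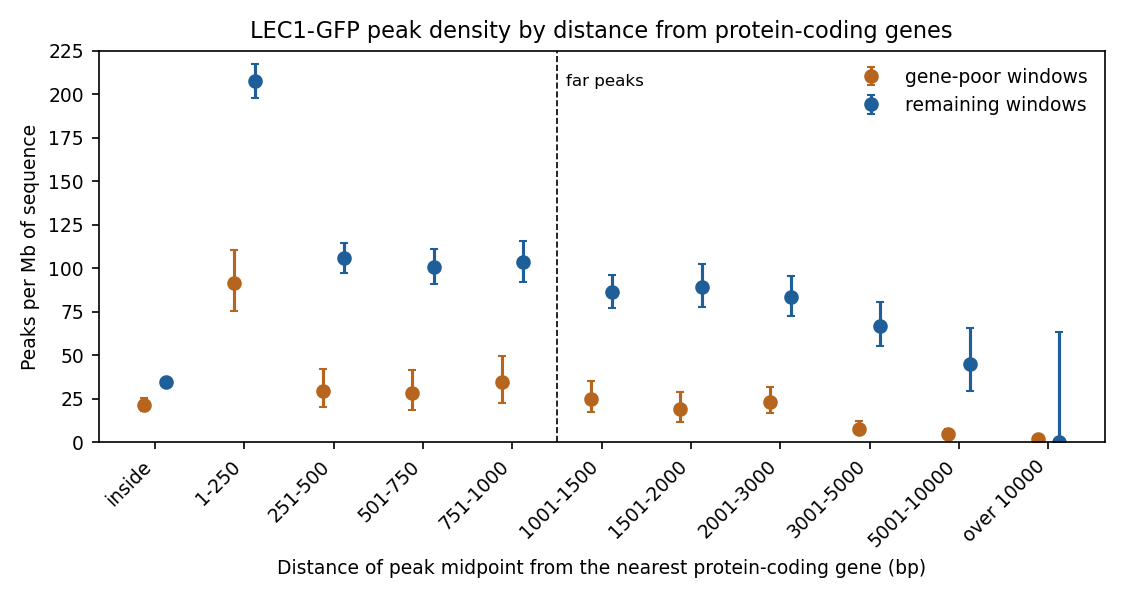
Peak density, in peaks per Mb of sequence, against the distance of the peak midpoint from the nearest protein-coding gene in bp, in gene-poor windows and in the remaining windows; points are densities, bars are 95% exact Poisson intervals, and the dashed line marks 1000 bp. In the remaining windows the density lies between 83.4 and 89.5 per Mb from 1001 to 3000 bp and is lower farther out, and in gene-poor windows it lies lower at every distance up to 10000 bp.

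Most far peaks were only moderately far. The median distance to the nearest protein-coding gene was 1795 bp (interquartile range 1332 to 2575 bp), within gaps between coding genes with a median length of 5614 bp. Of the 1057 far peaks, 445 (42.1%, 39.1 to 45.1%) lay over 2000 bp from a gene, 189 over 3000 bp, 58 over 5000 bp, 15 over 10000 bp and 4 over 20000 bp. The farthest lay 48871 bp from AT4G08097, in a gap of 114871 bp on chromosome 4 (4955151 to 4955299), with a score of 2.22 and a width of 149 bp. The next lay 32562 bp from AT2G10625 on chromosome 2 (score 2.04), 24877 bp from AT5G28237 on chromosome 5 (score 2.71), and 21222 and 19972 bp from AT2G12646 on chromosome 2, where both peaks shared a gap of 120107 bp (scores 2.05 and 2.53). All 5 lay in gene-poor windows, and the first and second lay within 1000 bp of an annotated pseudogene. The gene table is of assembly TAIR10.1, whereas the submitters' notes name TAIR10 for the peaks, and it gives no strand, so upstream and downstream sides are not told apart.

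The far peaks were spread over all chromosomes, and their numbers on chromosomes 1 to 5 were 285, 183, 193, 167 and 229. They made up 15.3% of the peaks on chromosome 3 and 18.75% of those on chromosome 2, with intervals that overlap (13.3 to 17.4% and 16.3 to 21.3%). A larger share of far peaks than of the other peaks lay in gene-poor windows, 14.4% (12.3 to 16.6%) against 6.21% (5.57 to 6.89%).

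In score and width the far peaks were much like the other peaks. The score is a value the authors gave each peak, and nothing in the sources used here states its scale. It had a median of 2.48 in far peaks (interquartile range 2.20 to 2.87, highest 4.29), against 2.47 in peaks outside genes within 1000 bp and 2.40 in peaks inside genes. The median width was 249 bp in far peaks and in the rest, and 5.30% of far peaks (4.03 to 6.83%) were 549 bp or wider, against 5.55% (4.95 to 6.20%) of the rest. Peaks just inside the distance rule, at 1001 to 1100 bp, numbered 83 with a median score of 2.51, and those just outside it, at 901 to 1000 bp, numbered 124 with a median score of 2.54. Score changed little with distance, with medians of 2.498 at 1001 to 2000 bp, 2.46 at 2001 to 5000 bp and 2.49 beyond 5000 bp. Far peaks were not confined to weak scores: they made up 18.3% (16.4 to 20.2%) of the 1589 peaks with the highest scores, 15.8% (14.04 to 17.7%) of the 1589 with the lowest, and 6 of the 25 peaks with the highest scores (24.0%, 9.36 to 45.1%). The 5 far peaks with the lowest scores had 1.92 to 1.94, were 49 bp wide, and included 1 that lay 1745 bp from ABI3.

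**Figure D2:**
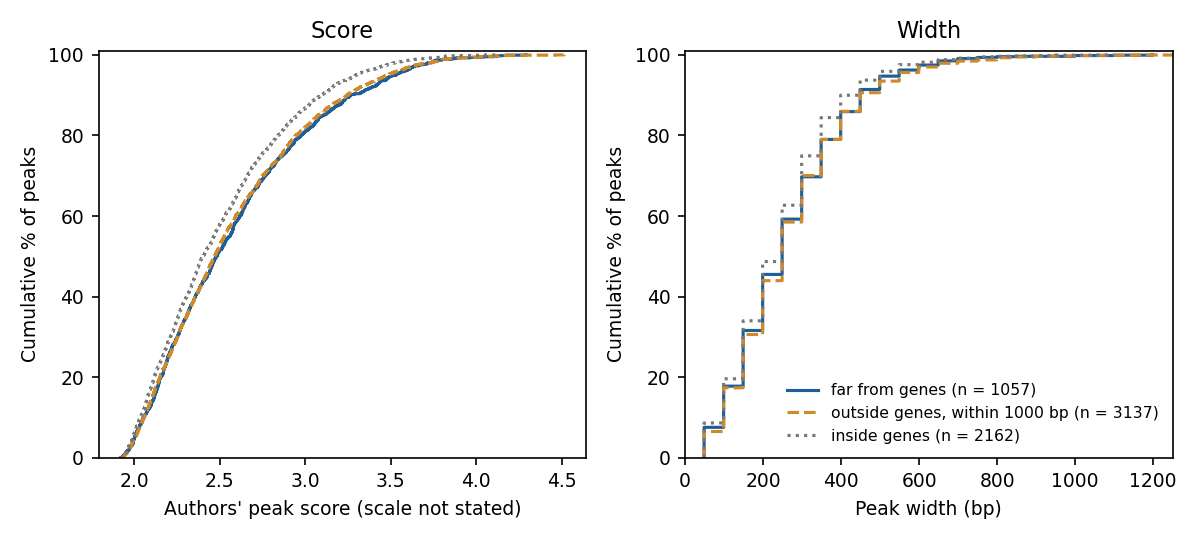
Cumulative percentage of peaks against the authors' score and against peak width in bp, for the 1057 far peaks, the 3137 peaks outside genes within 1000 bp and the 2162 peaks inside genes. The curves nearly coincide, with medians of 2.48, 2.47 and 2.40 for the score and 249 bp for each class's width.

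The far peak with the highest score lay between DWF4 and U1-70K. DWF4 encodes a hydroxylase of brassinosteroid synthesis and U1-70K a protein of the spliceosome. The peak had a score of 4.29 and rank 4 in the whole list (chromosome 3, 18821801 to 18822299), 4110 bp from U1-70K and 4645 bp from DWF4. DWF4 also had a peak close to its end, with a lower score of 2.84. The next far peak, with a score of 4.17 (chromosome 2, 9520601 to 9521249), lay 3539 bp from AT2G22426 and 5063 bp from HB6, a homeodomain-leucine zipper factor of the abscisic acid response. A small peak with a score of 2.06 lay between it and HB6.

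The other far peaks with a score above 4 lay near TPS11, a trehalose-phosphate synthase family gene (4.12, at 1123 bp, the only peak in a gap of 9504 bp), between AT2G40004 and AT2G40010 (4.15), near AT1G64620 (4.11, at 1835 bp), between AT2G19802 and the zinc finger gene OZF1 (4.04, at 4858 and 6178 bp), and between AT3G11420 and PP2CA (4.03). PP2CA, also called AHG3, encodes a protein phosphatase 2C that restrains abscisic acid signalling. Neither gene beside the peaks at TPS11 and AT2G40004 had a peak of its own, meaning one with its midpoint inside the gene or within 1000 bp of it.

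The remaining 8 of the 15 highest-scoring far peaks lay as follows. A peak with a score of 3.97 lay 3414 bp from CID9 and 12110 bp from NCED3, which encodes a dioxygenase that cleaves carotenoids in the rate-limiting step of abscisic acid synthesis. A peak of 3.88 lay 1103 bp from PSY, the phytoene synthase that opens carotenoid synthesis, and neither PSY nor SDG40 on the other side had a peak of its own. A peak of 3.80, 799 bp wide, lay 1611 bp from HAI1, another phosphatase of abscisic acid signalling. The other 5 lay beside PHR1, a DNA photolyase (3.89), MYB52 (3.86), GATA13 and ARF10 (3.85), LBD31 and JLO (3.80), and AT5G61997 (3.76). The last was also the widest far peak, at 1199 bp (chromosome 5, 24905951 to 24907149). Next in width came peaks of 1099 bp near GA20OX3 (score 3.54), 999 bp between EDA12 and BLH1 (3.63), 999 bp near AOX1A (3.48) and 849 bp near AT2G27680 (2.97).

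**Figure D3:**
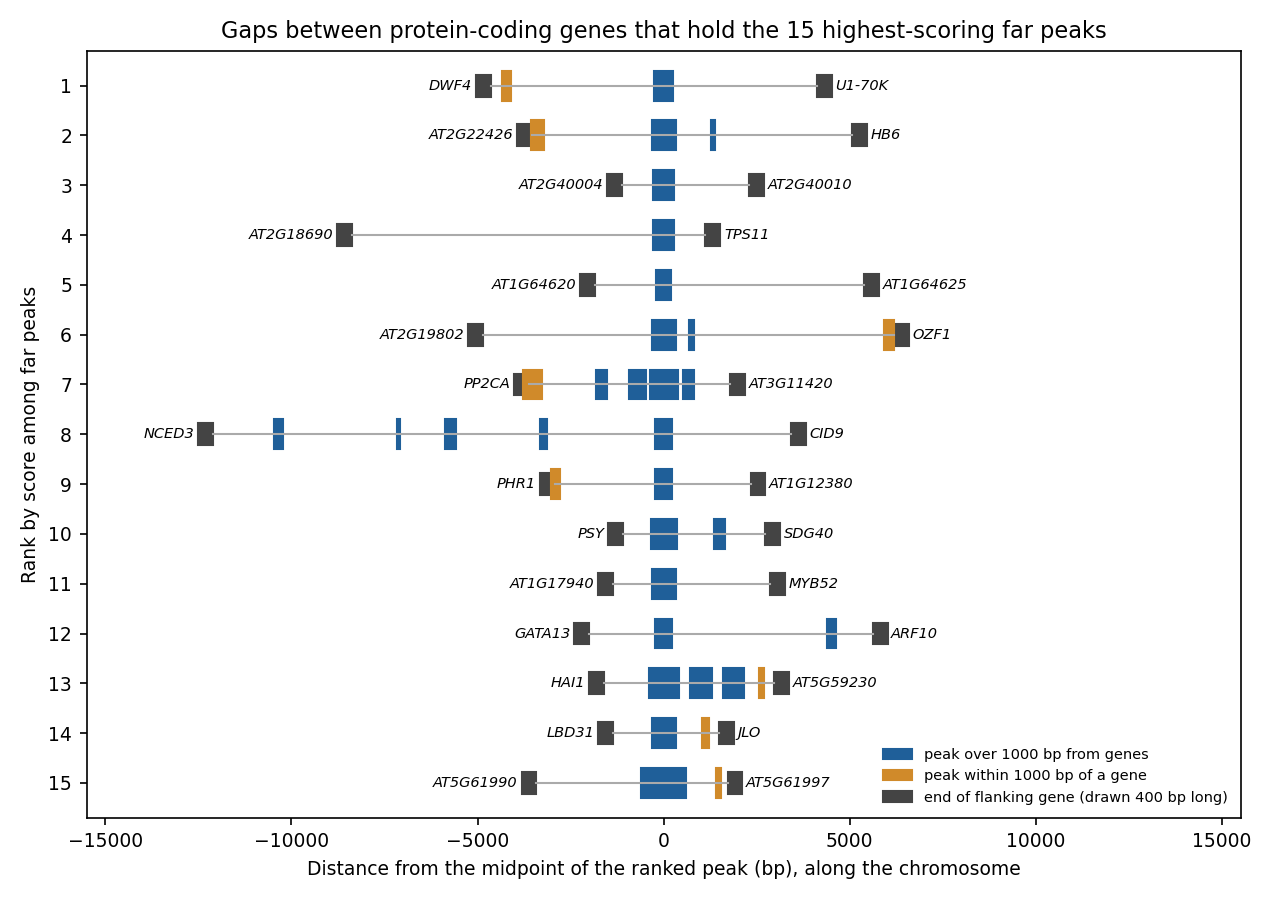
The 15 far peaks with the highest scores, each centred at 0 on a horizontal axis of distance in bp along the chromosome, with the ends of the flanking protein-coding genes and all other peaks in the same gap. The gap beside NCED3 holds 5 far peaks, those beside PP2CA and HAI1 hold 4 and 3, and those beside TPS11 and MYB52 hold the ranked peak alone.

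Noncoding genes and pseudogenes were considered next. The midpoint of 91 far peaks (8.61%, 6.99 to 10.5%) lay inside an annotated noncoding gene or pseudogene, although such features cover 33.9% of the far sequence. Set against the length they cover, RNA genes held many far peaks and pseudogenes few. RNA genes held 86 far peaks (8.14%, 6.56 to 9.95%) on 2.41% of the far sequence. Pseudogenes, transcribed or not, held 6 (0.568%, 0.209 to 1.23%) on 31.6% of it. With gene-poor windows, where pseudogenes are most frequent, left out, pseudogenes held 4 far peaks (0.442%) on 14.3% of the far sequence. These are shares of total length, and how much of it reads could be mapped to was not measured. Few peaks in pseudogenes therefore do not show few bound sites. For 783 far peaks (74.1%) no noncoding gene or pseudogene lay within 1000 bp. Of these classes the annotation names few entries as transposons (16 of 4843 pseudogene entries), so transposons as such were not analysed here.

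Genes for lncRNAs held most of these peaks, 67 (6.34%, 4.95 to 7.98%) on 1.21% of the far sequence. Outside the gene-poor windows they held 60 far peaks, or 232 per Mb (177 to 299), against 90.8 per Mb in far sequence outside noncoding genes and 207 per Mb in the first 250 bp outside protein-coding genes. The density was 86.6 per Mb (55.5 to 129) in the first 250 bp outside these lncRNA genes and 90.5 per Mb (83.8 to 97.6) more than 2000 bp from them, so it was high inside the lncRNA gene and not around it. Protein-coding genes showed the other order, with 34.8 per Mb inside and 207 per Mb in the first 250 bp outside. The insides were not matched for gene length, and the part of length in this order was not tested. Genes for lncRNAs cover 0.367 Mb of far sequence, whereas the 27444 protein-coding genes cover 64.5 Mb. Most lncRNA genes carried no peak all the same: of 822 that lie wholly over 1000 bp from coding genes, 66 had a peak midpoint inside.

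Of the far peaks over lncRNA genes, the 3 with the highest scores are given first. The PP2CA peak of 4.03 lay inside 2 overlapping noncoding genes, the lncRNA AT3G02405 and the ncRNA AT3G11415. A weaker peak in the same gap, 3.08, lay in AT3G11415 and in the lncRNA AT3G02395. The peak of 3.80 between LBD31 and JLO, both LOB-domain genes, lay inside the lncRNAs AT4G03535 and AT4G03545. A peak of 3.71 lay inside AT3G01855, 1848 bp from MYB108. Among far peaks beside genes of the hormone lists below, lncRNA genes also held the peak of 3.05 at 1582 bp from RGA1 and the peak of 2.88 at 2057 bp from GAI, both DELLA repressors of gibberellin signalling. In all, 15 far peaks lay in more than 1 noncoding gene. The table annotates no strand, so which of overlapping genes a peak belongs to is uncertain.

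Of the other RNA classes, misc_RNA genes held 14 far peaks, led by a peak of 3.61 in AT4G03015 at 1567 bp from AT4G19420, a pectin acetylesterase gene. Peaks of 3.08 in AT1G08895 and 2.996 in AT5G00725 followed, the last at 1136 bp from GATA5. Genes of the class ncRNA held 7, among them a peak of 2.99 in AT1G67105 at 3261 bp from LBD40. No far peak lay inside a microRNA, tRNA, snoRNA, snRNA or rRNA gene. The exact interval for 0 of 1057 reaches 0.348%, whereas these classes cover from 0.0054% (snRNA) to 0.076% (microRNA) of the far sequence, so these zeros do not show a lower density. The pseudogene peaks had modest scores. The highest was 2.77, in AT4G21420 at 1140 bp from the receptor-like kinase gene CRK29, followed by 2.65 in the transcribed pseudogene AT1G63040 at 2984 bp from DDF2, a DREB-type factor.

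**Figure D4:**
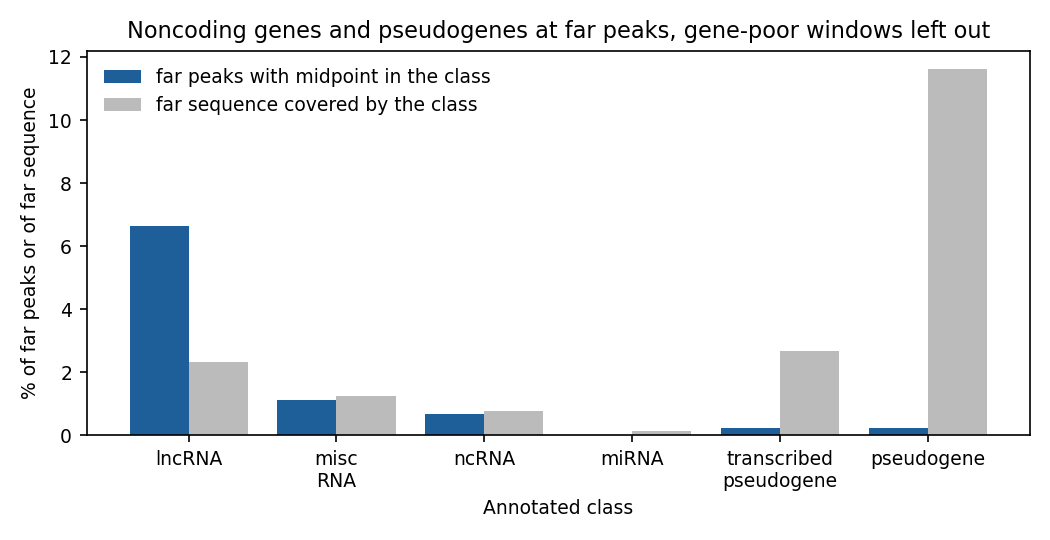
Percentage of far peaks with their midpoint in each annotated class, beside the percentage of far sequence that the class covers, with gene-poor windows left out. Genes for lncRNAs hold 6.63% of these peaks on 2.31% of the sequence, and the class pseudogene holds 0.221% on 11.6%.

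MicroRNA genes often stand alone between coding genes, and 10 far peaks lay within 1000 bp of one. The highest, with a score of 3.53 (chromosome 4, 15415801 to 15416299), lay 529 bp from MIR156c. A further peak, with a score of 2.24, lay 402 bp from MIR156a. The miR156 family acts on SPL factors and holds plants in the juvenile phase. Genes for microRNAs that act on auxin response factors also had far peaks, MIR167a with a score of 2.64 at 222 bp and MIR160b with 2.60 at 830 bp. MIR390a, which starts the production of small RNAs that act on further auxin response factors, had one of 2.33 at 465 bp. The peak near MIR399c, of the phosphate starvation response, had a score of 2.97. MIR858a, which acts on MYB genes, had one of 2.46 at 250 bp, and MIR779 one of 2.12 at 777 bp. The peaks near MIR159a (459 bp) and MIR319b (694 bp), whose microRNAs act on MYB and TCP factors, both had scores of 1.99 and were 49 bp wide. Over the whole list, 32 of 326 microRNA genes had a peak midpoint within 1000 bp, and 11 of the 125 that lie far from coding genes did. Among all protein-coding genes, 6481 of 27444 (23.6%) had a peak midpoint inside or within 1000 bp. A longer gene offers a wider stretch for a peak, and gene lengths were not matched here. Of the far peaks, 0.946% (0.455 to 1.73%) lay within 1000 bp of a microRNA gene, against 0.415% of the other peaks. MIR156c and MIR399c were the microRNA genes whose far peak was among the 1589 highest scores of the list.

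Far peaks shared their gaps unevenly. Of 6538 gaps over 2000 bp long, 845 (12.9%) held at least 1 far peak: 685 held 1, 117 held 2 and 43 held from 3 to 5. Longer gaps held them more often, with 12.4% (10.5 to 14.5%) of gaps of 3001 to 4000 bp and 38.1% (31.0 to 45.6%) of gaps of 10001 to 20000 bp in the windows that are not gene-poor. Per Mb of far sequence the order was the opposite, 94.1 in gaps of 3001 to 4000 bp and 58.0 in gaps of 10001 to 20000 bp. For 461 far peaks (43.6%) there was no other peak of any kind in the gap. The nearest other peak lay at a median of 2450 bp, and 273 far peaks (25.8%) lay within 2000 bp of another far peak.

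There were 25 clusters of 3 or more far peaks spaced by at most 2000 bp. In the cluster at HAI1 every peak scored high: the 3 peaks had 3.80, 3.55 and 3.44, with their midpoints within 1875 bp on chromosome 5, and the next highest of the lowest scores per cluster was 2.79, at ERF4. HAI1 had 3 further peaks of its own with scores up to 3.35. The PP2CA gap held 4 far peaks from 2.62 to 4.03. Other clusters of 4 lay between the repressor gene ERF4 and AT3G15220 (2.79 to 3.33), between PDV1 and the cytokinin response factor gene CRF3 (1.97 to 3.29), and between AT1G30820 and DIS2 (2.14 to 2.52). Clusters of 3 lay beside MP (1.97 to 3.76), KNAT3 (2.64 to 3.13), KAN2, a KANADI factor of organ polarity (2.55 to 3.37), P5CS1, which makes proline under stress (2.65 to 3.07), XERICO, a RING-type gene that promotes abscisic acid accumulation (2.33 to 2.86), and CESA6, a cellulose synthase (2.03 to 3.17). Further clusters of 3 lay between AT1G61890 and AT1G61900 (2.02 to 3.74), ATL4 and EIF4G (2.06 to 3.64), and LFR and CIPK7 (2.27 to 2.91). Others lay between BAM1 and HSL2 (2.02 to 2.84) and between DMC1 and APS1 (2.05 to 2.64). Not all 25 clusters are named, so those named do not show which kinds of gene lie beside clusters. NCED3 was beside more far peaks than any other gene of the lists below, 6, with 5 in the long gap towards CID9 (2.15 to 3.97) and 1 on its other side (2.22).

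The coding genes beside far peaks were compared with those beside gaps of more than 2000 bp that held no far peak, since both kinds of gene border a gap long enough for one. Of 935 genes that were the nearest to a far peak, 394 (42.1%, 38.9 to 45.4%) also had a peak of their own, against 1939 of 9133 genes (21.2%, 20.4 to 22.1%) at gaps without a far peak. The latter were taken from both sides of a gap. Of the 1633 genes on both sides of far peaks, 605 (37.0%, 34.7 to 39.4%) had a peak of their own. Gap length and gene-poor windows move with these shares, so the comparison was repeated within them for genes on either side of the gap. In windows that are not gene-poor, genes with a peak of their own made up 40.0% (35.3 to 44.9%) beside gaps of 2001 to 4000 bp with a far peak, against 25.1% (23.9 to 26.3%) beside such gaps without one. For gaps of 4001 to 6000 bp the shares were 39.7% (35.4 to 44.1%) and 25.7% (23.6 to 27.9%). For gaps of 6001 to 10000 bp they were 45.1% (39.9 to 50.3%) and 21.9% (19.1 to 24.8%). For gaps of 10001 to 20000 bp the intervals overlapped, 32.1% (24.4 to 40.6%) and 18.8% (13.9 to 24.6%). In gene-poor windows the intervals were apart for gaps of 2001 to 4000 bp and overlapped for longer gaps up to 20000 bp. Seen from the peaks, 401 far peaks had no flanking gene with a peak of its own, 472 had it on one side and 184 on both. Where the nearest gene had a peak of its own, the far peak scored higher than the highest of these in 229 of 458 cases.

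Transcription factor genes, recognised by their names, were frequent beside far peaks. They made up 96 of the 935 nearest genes (10.3%, 8.40 to 12.4%), against 4.23% (3.82 to 4.66%) of genes at gaps without a far peak, 5.45% (4.65 to 6.33%) of the nearest genes of peaks outside genes within 1000 bp, and 2.94% of all protein-coding genes. Counted on both sides, as at gaps without a far peak, they made up 9.31% (7.94 to 10.8%) of the genes beside far peaks. Within gap lengths, outside gene-poor windows, they made up 8.87% (6.32 to 12.02%) beside gaps of 2001 to 4000 bp with a far peak against 4.90% (4.34 to 5.51%) without, and 13.2% (9.89 to 17.1%) against 5.11% (3.72 to 6.83%) for gaps of 6001 to 10000 bp. For gaps of 4001 to 6000 bp the intervals overlapped, 7.66% (5.50 to 10.3%) with a far peak and 6.60% (5.47 to 7.89%) without, and so they did for gaps of 10001 to 20000 bp, 10.9% (6.26 to 17.4%) with a far peak and 5.38% (2.81 to 9.21%) without.

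Homeobox genes were the most numerous of the families. Of 51 HB, WOX and KNAT genes at a gap over 2000 bp, 18 (35.3%) were the nearest gene to a far peak, where 8.68% of all 10766 genes at such gaps were. Gap lengths were not matched here or for the other families. HB-7 (AT2G46680), a homeodomain-leucine zipper factor induced by abscisic acid and drought, was nearest to 3 far peaks, the highest with a score of 3.69 at 1908 bp. Its close relative HB-12 (AT3G61890) was nearest to 2, with a top score of 3.02, and neither gene had a peak of its own. Of the same family, HB21 (AT2G18550), HB40 and HB53, factors known from bud dormancy, had top far peaks of 3.64, 3.29 and 2.76. HB16 and HB5 had far peaks of 3.58 and 3.22 and no peak of their own. The class III factors PHB and PHV, which specify the upper leaf side, had weaker ones of 2.24 and 2.30. Over the 18 genes the top scores ran from 2.01 to 3.69 with a median of 2.46, and 9 had no peak of their own.

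Other families held fewer of the nearest genes. There were 13 of 105 MYB genes (12.4%), led by MYB108 (3.71) and by MYBR1, the abscisic acid regulator also known as MYB44 (3.57), and 10 of the 13 had a peak of their own. There were 11 of 63 NAC genes (17.5%), led by XND1, a xylem regulator (3.47), NAC067 (3.46) and NAM (3.42), and 8 of the 11 had none of their own. The 11 of 51 WRKY genes (21.6%) had top scores from 1.96 at WRKY18 to 3.75 at WRKY22, and the WRKY22 peak lay 1101 bp away. Auxin response factor and Aux/IAA genes numbered 6 of 40 (15.0%) and GATA, DOF and ZFP genes 7 of 38 (18.4%), including BME3, a GATA factor that promotes germination (2.31). The GRF group, 3 of 8, holds the growth-regulating factor genes GRF3 and GRF6 and their coactivator AN3. The counts per family are small and were chosen with these data known.

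Lists of seed and hormone genes were then read for far peaks on either side. Over all 27444 protein-coding genes 5.95% were on either side of a far peak, and of the 10766 genes at a gap over 2000 bp 15.2% were. Of the 15 seed regulator genes at such a gap 8 were beside a far peak, of 21 gibberellin genes 11, of 29 embryo and meristem genes 14, of 25 abscisic acid genes 9 and of 55 auxin genes 16. Few genes for seed reserves and late embryogenesis border such a gap, 2 of 9 storage protein genes, 8 of 27 genes of oil bodies and oil synthesis and 4 of 19 late embryogenesis genes, and 1, 2 and 0 of them were beside a far peak. These counts were not split by gap length, and longer gaps held far peaks more often. Outside gene-poor windows, 12.4% of gaps of 3001 to 4000 bp and 38.1% of gaps of 10001 to 20000 bp held one. A far peak lies between 2 genes and was counted for both, so it need not belong to the gene named.

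Of the seed regulators, LEC1 itself had a far peak with a score of 3.71 (chromosome 1, 7732201 to 7732599), 2751 bp from LEC1 and 2261 bp from PIP5K1, and its own peaks were weaker, at 2.06 and 2.17. The transgene carries LEC1 flanking sequence, so reads from it and from the native locus cannot be told apart there. For the B3 regulators the order was the opposite. FUS3 had a far peak of 2.20 and its own peak of 3.59, LEC2 had a far peak of 2.00 and its own of up to 4.17, and ABI3 had far peaks of 1.93 and 2.69 and its own of 3.08 and 3.34. VAL2, listed in the gene table as HSL1, which represses the embryo programme after germination, had a far peak of 2.98 at 1271 bp and its own of 4.07. The far peak of 3.62 beside MYB96, an abscisic acid-responsive factor, lay 6034 bp away and closer to GSTU9, and MYB96 had no peak of its own. MYB118, active in the endosperm, had a far peak of 2.48 at 7241 bp and 3 peaks of its own. SPT, a bHLH factor of seed dormancy and carpel growth, had far peaks of 2.43 and 2.59. The far peaks of FUS3 and LEC2 and the SPT peak of 2.43 lay closer to another gene.

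In the abscisic acid list, far peaks lay beside synthesis, breakdown and signalling genes. Of the synthesis genes, NCED3 has been described, NCED5 had a far peak of 2.94 at 3835 bp with no peak of its own, and NCED6 had one of 2.17. The breakdown enzymes CYP707A1 and CYP707A3 had far peaks of up to 3.05 and of 3.06, at 8084 and 7804 bp from the gene. The phosphatases HAI1, HAI2, AHG1 and PP2CA had highest far peaks of 3.80, 2.97, 2.64 and 4.03, and each also had at least 2 peaks of its own. The peaks given here for NCED6, CYP707A1, CYP707A3, AHG1 and PP2CA lay closer to another gene. No PYR or PYL receptor gene and no ABF factor gene was beside a far peak. How many of these border a gap over 2000 bp was not counted, and 15.2% of all genes at such gaps were beside one.

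Gibberellin genes beside far peaks included genes for late synthesis steps, inactivation, DELLA repressors and receptors, and the list holds no early synthesis gene. GA20OX3, which makes gibberellin precursors in seeds, was beside 5, from 1.98 to 3.54, and had its own peak of 2.04. GA20OX2 had 1 of 2.63 and no peak of its own. GA3OX1, for the last activating step, had a far peak of 2.58 at 4183 bp, and GA3OX3 had 1 of 2.34. Of the inactivating enzymes, GA2OX2 was beside 4 far peaks from 2.31 to 3.41 and had no peak of its own, GA2OX4 was beside 2 of 2.29 and 2.85, and GA2OX7 beside 1 of 1.96. The GA2OX2 peaks of 2.65 and 2.73 lay 19832 and 15532 bp from it and closer to nMAT1, at 1240 and 5540 bp. The DELLA genes RGA1 and GAI had far peaks of 3.05 and 3.24 and of 2.53 and 2.88, and neither had a peak of its own. The receptor genes GID1A and GID1B had far peaks of 2.08 and of 2.21 and 2.26. The peaks beside GA20OX2, GA3OX3, GA2OX7 and GID1A also lay closer to another gene. So did those of 2.21, 2.32 and 2.67 beside GA20OX3, 2.85 beside GA2OX4, 3.24 beside RGA1 and 2.21 beside GID1B.

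**Figure D5:**
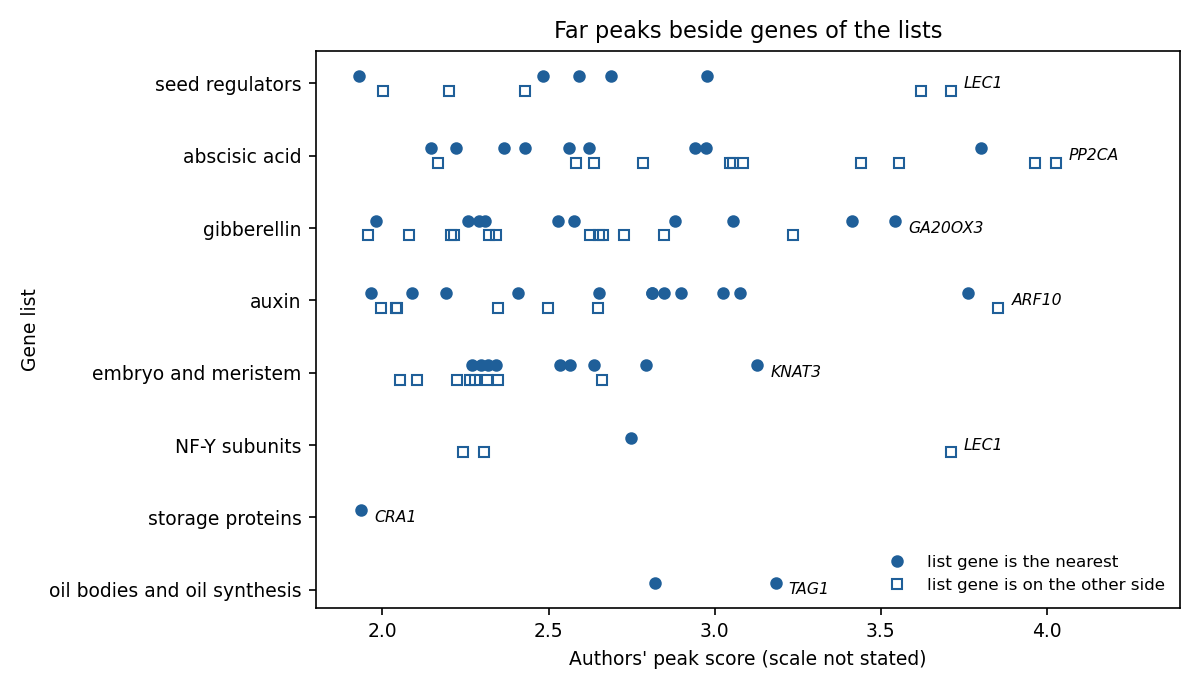
The authors' score of each far peak that has a gene of a list on either side, by list; filled circles mark peaks nearest to the list gene, open squares peaks with the list gene on the other side, and the gene at the highest score is named. Of the named genes the highest are PP2CA at 4.03, ARF10 at 3.85 and LEC1 at 3.71, and each of these peaks lay closer to the gene on the other side. Not named but above LEC1 are NCED3 at 3.97, HAI1 at 3.80 and MP at 3.76. No far peak lay beside a late embryogenesis gene, a list not drawn.

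Auxin genes beside far peaks included response factor, repressor, synthesis and transport genes. MP, the auxin response factor that patterns the embryo axis, had far peaks of 3.76, 2.81 and 1.97 at 3419, 1969 and 4169 bp and none of its own. ARF10 had far peaks of 3.85 at 5614 bp, which lay closer to GATA13, and of 2.41 at 1114 bp. ARF6, ETT, ARF16 and ARF19 had far peaks of 2.81, 2.85, 2.65 and 2.00, at 2162, 2372, 1340 and 8417 bp. Those of ARF16 and ARF19 lay closer to another gene. The Aux/IAA repressor genes SHY2 and AXR3 share the gap with a peak of 3.03, and IAA18 had 2 far peaks of 2.65 and 3.08. PAP2, which is IAA27, had 1 of 2.04 at 6239 bp, closer to another gene. The auxin synthesis genes YUC9, YUC6, TAA1 and YUC1 had far peaks of 2.90, 2.50, 2.35 and 2.09, and the transport gene PIN3 of 2.04. The peaks beside YUC6, TAA1 and PIN3, at 11391, 3055 and 3190 bp, lay closer to another gene.

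Of the embryo and meristem genes, KNAT3 had the highest far peak, 3.13, within its cluster of 3. The stem cell genes WUS and CLV3 had far peaks of 2.30 at 1846 bp and 2.32 at 1078 bp, and STM and KNAT1 of 2.10 at 8012 bp and 2.56 at 5249 bp, and these 4 genes had no peak of their own. The root and embryo factors PLT1, PLT2 and AIL6, also called PLT3, had top far peaks of 2.05, 2.34 and 2.35. WOX4, WOX13 and WOX2 had far peaks of 2.66, 2.31 and 2.26, and CUC2 and CUC3, which set organ boundaries, of 2.23 and 2.53. AS1 had 1 of 2.28. The peaks beside WOX4, WOX13 and WOX2, at 15540, 2249 and 4550 bp, lay closer to another gene. So did those beside STM, PLT1, CUC2 and AS1 and the top far peak of AIL6. In all, 7 of the 14 genes were the nearest gene to their far peak.

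Besides LEC1, the NF-Y genes beside far peaks were NF-YB5 (2.75, at 1432 bp), NF-YA4 and NF-YA7. The last 2 had far peaks of 2.24 and 2.30 that lay closer to PHB and PHV. Of the reserve genes, the cruciferin gene CRA1 had a far peak of 1.94, among the lowest scores of the list, and peaks of its own of 2.92 and 3.29. TAG1, which is the diacylglycerol acyltransferase DGAT1 of oil synthesis, had a far peak of 3.18 at 1492 bp, above its own of 2.09, and the desaturase FAD3 had a far peak of 2.82 at 2910 bp, above its own of 2.26 and 2.27.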

How the data were processed

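Chromatin of bent cotyledon-stage seeds was fixed with 1% formaldehyde and sonicated to 100 to 500 bp, per the labels' protocols, which also give 15 cycles of library PCR. Bowtie 0.12.7, SAMtools 0.1.19 and the build TAIR10 come from the submitters' processing notes. No source used here gives the peak caller, its threshold or any pooling of replicates. The deposited peak list gives a position and a score made by the authors, used here only to describe and rank peaks. Peak edges lie on a 50 bp grid, and starts were raised by 1.

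Genes came from a RefSeq table of TAIR10.1. As a check of the builds, midpoints inside genes were 64.0% and 62.7% with the peaks moved 10000 bp to either side, and 34.0% unmoved. Far peaks, list genes and transcription factor names were counted with Python 3.11.15, pandas 2.3.3, NumPy 2.4.6 and SciPy 1.17.1, tested on simulated data, and drawn with Matplotlib 3.10.9. Gene-poor windows are the 25% of 500 kb windows with the fewest protein-coding genes, partial windows at chromosome ends included. A gap is the space between merged protein-coding genes. No test was made, since 1 list carries no replicates.

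Far peaks named are the 15 highest, 5 lowest, 5 farthest and 5 widest, those near microRNA genes, the highest per noncoding class, those beside list genes and some of the clusters. Those of transcription factor families were named after their values were seen. The members and lists were chosen with earlier results of these data known. GA2OX5 was not found among protein-coding genes. The values of 1 list gene and 1 gene family are not reported here. Alternatives changed the distance rule, the part of the peak used, the score and width limits, the window size and the definition of a neighbour.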

Additional observations from a re-analysis of the deposited data

How the results depend on the processing

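Of 44 values recomputed under other choices, 33 moved by less than their interval, 11 moved by more and 0 reversed. The share of far peaks (16.6%) was 28.4% with a limit of 500 bp, 7.001% with 2000 bp, 14.8% with the whole peak beyond 1000 bp and 15.4% outside the gene-poor windows, a choice added after the data were seen. The share at noncoding genes or pseudogenes (8.61%) was 10.97% with any overlap and 25.9% within 1000 bp. The median distance (1795 bp) was 1916.5 bp with the whole peak beyond 1000 bp. The share of far peaks in gene-poor windows (14.4%) was 11.4% with a limit of 500 bp, 21.3% with 2000 bp and 17.6% with windows of 100 kb. The share of transcription factors among nearest genes (10.3%) was 8.38% with a limit of 500 bp. These choices redefine the peaks counted. Scores and widths of far and other peaks stayed within their intervals under each alternative tried.

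No paired analysis was possible because the peak list holds no value per library, and for the same reason leaving out a replicate was not run. The depth of the libraries is unknown, so a gap without a peak was not detectably bound in this list and is not shown to be unbound.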
